A study of Mus musculus with 563 samples.

Results

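The mouse mitochondrial genome carries 37 genes, of which 13 encode proteins, 2 encode ribosomal RNAs and 22 encode transfer RNAs. They were followed here in single haematopoietic stem cells (HSCs) of old and young mice as the 37 entries whose symbols begin with mt-, of 46078 gene entries in each of 2 deposited count tables. All 37 were present in both tables, and 35 had at least 1 read in the kept cells. The cells came from bone marrow of Gfp-Lc3 mice, in which green fluorescent protein is fused to LC3, found on autophagosomes, and were taken at steady state. The old cells form the groups oHSC_LO, oHSC_MID and oHSC_HI, written LO, MID and HI below, and the reference is the young group yHSC. The genotype is the same in all groups, no age is given beyond old and young, and the promoter that drives the transgene is not named. The series title and design text describe sorting with a record of the GFP-LC3 level, but the labels do not say whether LO, MID and HI rank brightness or autophagy activity. Each deposited sample is 1 cell, sorted into a plate well and prepared with a modified Smart-seq2 protocol, which copies polyadenylated RNA along its length.

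Mitochondrial DNA is transcribed from both strands into long precursors, which are cut at the tRNAs into mRNAs, rRNAs and tRNAs. The mRNAs and rRNAs are mostly polyadenylated. The 13 proteins are core subunits of the respiratory chain and of ATP synthase, and all of the other subunits come from nuclear genes. The 2 rRNAs, mt-Rnr1 of the small subunit and mt-Rnr2 of the large subunit, build the mitochondrial ribosome that translates them. Autophagy of mitochondria is one route by which HSCs remove them, and long-term HSCs are known for relying little on respiration.

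A stretch of mitochondrial sequence that takes in all or part of 7 protein genes is repeated on chromosome 1, and the places where the 2 versions meet or part are shown here from GENCODE M21 transcripts (GRCm38). The genes mt-Atp8 and mt-Atp6, which encode subunits of ATP synthase, share 43 bases at M:7927-7969 on the plus strand, with the start codon of mt-Atp6 and the stop codon of mt-Atp8 in capitals. That stretch is also in the chromosome 1 copy without a mismatch.
overlap of mt-Atp8 and mt-Atp6: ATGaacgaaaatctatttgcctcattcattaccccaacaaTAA
In mt-Nd3, a subunit gene of complex I, the copy Gm28438 differs at 1 base of 345 aligned, T3C counted from the first base of the gene, shown in capitals at M:9459-9471.
mt-Nd3: atTaacctgtaca
Gm28438: atCaacctgtaca
In mt-Co1, a subunit gene of complex IV, the copy Gm29216 differs at 1 base of 483 aligned, A1066T, in capitals at M:6383-6403. The alignment begins 3 bases to its left, and the bases further left lie outside it and are not marked.
mt-Co1: tctaaccggaAttgttttatc
Gm29216: attggcaggaTttgttttatc
The 2 tRNA genes with a read in the largest shares of cells, mt-Tq for glutamine (M:3772-3842) and mt-Tp for proline (M:15356-15422), both lie on the minus strand and have no part in that copy.
mt-Tq: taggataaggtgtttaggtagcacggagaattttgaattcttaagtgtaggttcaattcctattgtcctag
mt-Tp: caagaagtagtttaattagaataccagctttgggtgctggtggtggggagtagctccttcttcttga

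Of 563 cells, 533 reached 50000 nuclear gene reads over 1000 or more detected nuclear genes, and were kept. They numbered 65 and 71 LO cells, 68 and 66 MID cells, 68 and 61 HI cells, and 63 and 71 young cells in the first and second table. The kept cells held 171309533 nuclear gene reads and 3674739 mitochondrial reads. The labels name no animal. Each group therefore counts as 1 sample per table, no test was run, and intervals cover the counting of reads alone. Since reads of 1 molecule are not independent, the intervals are too narrow even for that. The 9 HSC markers used for the check (Procr, Slamf1, Kit, Mecom, Hlf, Ly6a, Fgd5, Hoxb5 and Ctnnal1) had reads in every group and table, with a summed level of 2322 to 3207 reads per 1000000 nuclear gene reads (CPM). Thinned to 100000 nuclear reads, all cells had Kit, but detection of some markers differed by group. Slamf1 had a read in 45.8% and 39.1% of young cells (first and second table), against 64.6% to 80% in the old groups. Procr had one in 62.7% and 60.9% of young, 66.2% and 67.2% of HI, and 84.2% and 83.3% of LO cells. Markers of other blood cells summed to between 18.9 CPM for the T and NK cell list and 442 CPM for the neutrophil and monocyte list. The 8 megakaryocyte markers moved with the groups, at 284 and 310 CPM in HI, 279 and 379 CPM in LO, 225 and 217 CPM in MID, and 189 and 154 CPM in young cells (first and second table). After thinning each cell to 100000 nuclear reads, at least 3 of them had a read in 32.3% and 46.6% of HI cells, 35.1% and 25.8% of LO, 21.5% and 27.4% of MID, and 13.6% and 14.5% of young cells. Of these markers 7 had reads in every group and table, while Gp6 had 0 reads in all but HI of the second table. In the second table, all 71 young cells had at least 20 Xist reads and 0 had 20 reads of Y-linked genes, while in the first, 57 of 63 young cells had 20 Y-linked reads, so sex cannot be told apart from age in the second table. HI cells were the deepest, with medians of 344265 and 325666 nuclear reads per cell in the first and second table, against 237674 to 296584 in the other 6 sets.

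The cells were also divided into runs of 24 along the numbers in their titles. Cells numbered 1 to 19, 25 to 43 and 49 to 67 in the first table had median log2 ratios of nuclear gene reads to spike-in reads of 4.95, 5.17 and 6.89. The runs that follow at the same spacing from 73 on, in the second table, had medians of 5.35, 5.23 and 6.87. Every group stepped up at the third run of each table. Between the first 2 runs of the first table the median of every group also rose, from 4.78 to 5.30 in LO but only from 4.85 to 4.88 in MID. Between the first 2 runs of the second table the groups had no common step. There the median of young fell from 5.32 to 4.89, while that of LO rose from 5.07 to 5.28. Each group is present in each run with 14 to 19 cells. The runs hold 428 cells, since the first 19 of every 24 numbers were used so that cells near the next run stayed out. The labels do not call these runs plates or batches. Comparisons are therefore given within each table and again within each of the 6 runs.

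The 2 rRNA genes dominated the mitochondrial reads, with 74.7% of them in the kept cells, against 25.2% for the 13 protein genes and 0.0964% for the 22 tRNA genes. mt-Rnr2 alone held 69.2% and stood at 9383 CPM per kilobase of gene over all kept cells. mt-Rnr1 stood at 1243 CPM per kilobase, although both rRNAs come from the same precursor. Among protein genes, mt-Cytb, which encodes the cytochrome b of complex III, was highest at 2126 CPM per kilobase. It was followed by mt-Co1, the catalytic subunit of complex IV, at 802 CPM per kilobase and by mt-Nd1, a complex I subunit, at 680 CPM per kilobase. The other complex I genes mt-Nd5, mt-Nd4, mt-Nd6 and mt-Nd2 stood at 279, 192, 173 and 172 CPM per kilobase. Next in order and far below were mt-Co3 of complex IV at 23.6 and mt-Atp6 of ATP synthase at 13.6 CPM per kilobase. The lowest protein genes were mt-Co2 at 6.48, mt-Atp8 at 4.26, mt-Nd4l at 1.42 and mt-Nd3 at 1.29 CPM per kilobase.

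**Figure D1:**
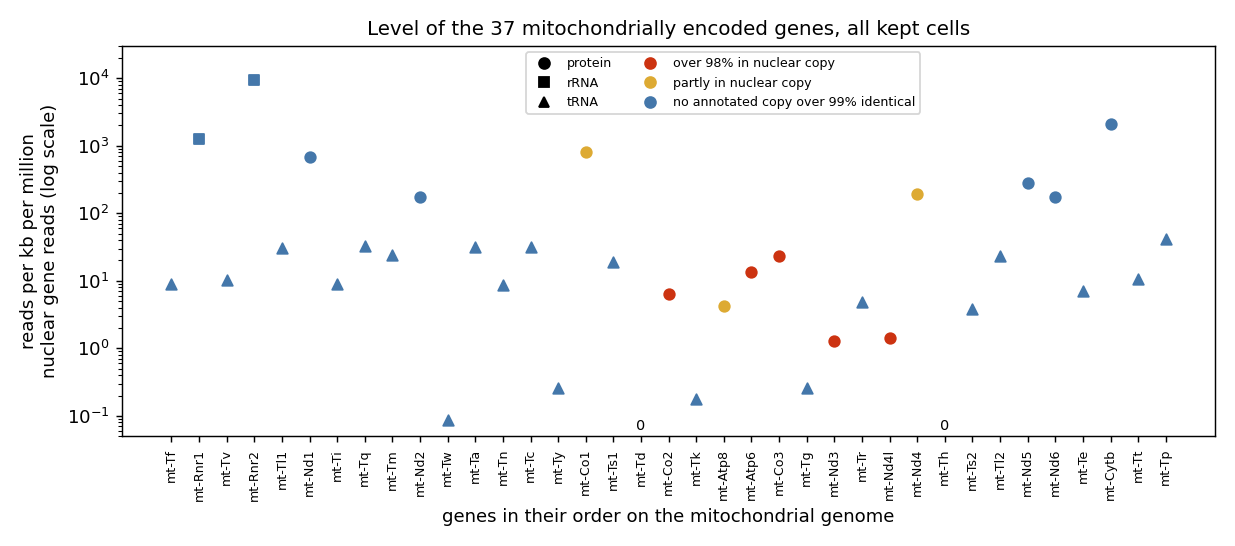
Level of each of the 37 mitochondrially encoded genes over all kept cells, as reads per kilobase per 1000000 nuclear gene reads on a log axis, in the order of the genes on the mitochondrial genome. Shape gives the class and colour the part of the gene repeated on chromosome 1: the 5 genes with over 98% of their length in the copy lie between 1.29 and 23.6, the 5 protein genes outside it between 172 and 2126, and mt-Td and mt-Th have 0 reads.

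The low protein genes lie side by side, within a region that is repeated in the nuclear genome. On chromosome 1, from 24611535 to 24616197 on the minus strand (GRCm38), 7 unprocessed pseudogenes aligned to mt-Co1, mt-Co2, mt-Atp6, mt-Co3, mt-Nd3, mt-Nd4l and mt-Nd4 at over 99% identity. They match the mitochondrial bases 6390 to 11042 in the same order, and 5 of the 6 gaps between neighbouring blocks had the same length in both places, the other differing by 1 base. The copy holds over 98% of the length of mt-Co2, mt-Atp6, mt-Co3, mt-Nd3 and mt-Nd4l, but 876 of the 1378 bases of mt-Nd4 and 483 of the 1545 bases of mt-Co1. The 5 nearly whole genes had 5654 reads together over 2794 bases, against 661425 reads over 5482 bases for mt-Nd1, mt-Nd2, mt-Nd5, mt-Nd6 and mt-Cytb, which have no part in it. Over all 563 cells, mt-Co3 had 3177 reads and its identical copy Gm28437 had 3178. Reads were likewise near each other for mt-Atp6, with 1593 in the gene and 1384 in Gm10925. The gene mt-Nd4l had fewer reads than its copy Gm10222, with 73 against 186. More reads fell in the gene for mt-Co2, with 764 against 480 in Gm28661, and for mt-Nd3, with 77 against 46 in Gm28438.

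The partly copied genes behaved differently, since mt-Co1 had 213627 reads against 1499 in Gm29216, and mt-Nd4 had 45525 reads against 594 in Gm28439. Per base outside the copy, mt-Co1 came to 1167 and mt-Nd4 to 526 CPM per kilobase. mt-Atp8 is the exception among the low genes, because 161 of its 204 bases lie outside the annotated blocks, and it still stood at 5.40 CPM per kilobase over those bases. It lies in the gap between the blocks of mt-Co2 and mt-Atp6, which is 233 bases long in both genomes, and whose sequence on chromosome 1 was not analysed here. The tables list 0 reads as aligned to more than 1 place in every cell. Whether such reads were dropped before counting was not tested, and for these 6 genes the counts show neither their level nor how they differ between groups. mt-Co3, the 1 of them above the level filter, is given below with that limit.

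The share of gene reads that were mitochondrial was low and narrow, between 1.13% and 5.62% per kept cell with a median of 2.11%. Median cells of the first and second table held 2.08% and 2.16% in LO, 2.38% and 2.16% in MID, 1.99% and 1.90% in HI, and 2.16% and 2.13% in young cells. HI had the lowest median in each table, and the interquartile ranges of all groups overlapped. The 30 cells left out ranged from 0.561% to 22.4% with a median of 2.60%, and 1 of them was above 20%.

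**Figure D2:**
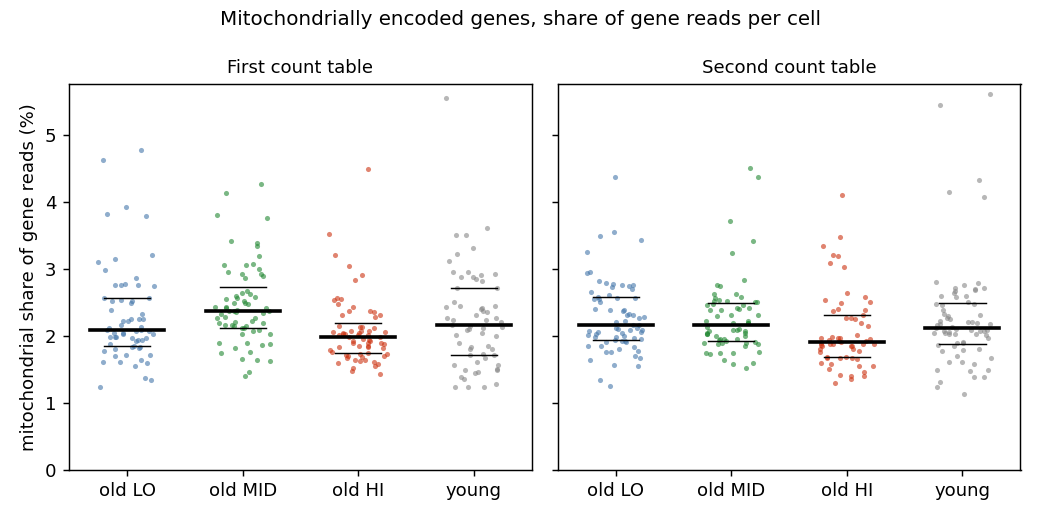
Mitochondrial share of gene reads in each kept cell, in percent, by group and count table; thick lines are medians and thin lines quartiles. The HI median is lowest in each table (1.99% and 1.90%), and the points of the 4 groups overlap.

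Per nuclear gene read, the summed mitochondrial level was lower in HI than in LO by 0.14 and 0.20 on the log2 scale in the first and second table, and HI was lower than young by 0.11 and 0.19. The sums were 20171 and 19004 CPM in HI, against 22240 and 21859 CPM in LO and 21805 and 21635 CPM in young cells. LO differed from young by 0.03 and 0.01, and MID by 0.16 and 0.01. Within the 6 runs, HI was below LO in 6, by 0.10 to 0.28. Against young, HI was below in 5 runs and above in 1, with differences from -0.21 to 0.09. These differences moved with depth: across the cells of each group and table, the log2 mitochondrial level was negatively related to the number of nuclear reads (Pearson's r from -0.74 to -0.28 in 8 sets of 61 to 71 cells, which share the nuclear reads as a term). Cells with 150000 to 300000 nuclear reads numbered 235, with only 19 to 46 per group and table. Among them, the HI to LO difference was 0.0063 and -0.0094 in the first and second table. The HI to young difference was -0.23 and 0.03 there, with opposite signs. The part of depth in the differences was not tested further.

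By class, the lower level in HI lay in the 2 rRNA genes. Their summed level was 14665 and 13511 CPM in HI (first and second table), against 16735 and 16428 CPM in LO and 16550 and 16798 CPM in young cells. The log2 difference was -0.19 and -0.28 from LO and -0.17 and -0.31 from young, with a 95% Poisson interval of 13466 to 13557 CPM for the lowest sum. HI was the lowest group in each table and LO and young lay close together, while MID was at 18530.5 and 16141 CPM. mt-Rnr2 had 13591 and 12538 CPM in HI, against 15444 and 15297 CPM in LO and 15338 and 15556 CPM in young cells. mt-Rnr1 had 1074 and 973 CPM in HI, against 1291 and 1131 CPM in LO and 1212 and 1242 CPM in young cells. Both rRNA genes were thus lowest in HI in each table, with 1 young cell holding 14.5% of the mt-Rnr1 reads of its group in the second table. Within the 6 runs, the rRNA level of HI was below LO in 6, by 0.14 to 0.36, and below young in 6, with differences from -0.35 to -0.0024. Between 150000 and 300000 nuclear reads the difference of HI from LO was -0.05 and -0.04, and from young -0.32 and -0.06. Without cells that hold a read of 3 or more markers of another blood cell type, HI differed from LO by -0.26 and -0.26 and from young by -0.18 and -0.30. That setting left 376 cells, with 33 to 60 per group and table. Of its lists, the megakaryocyte list was reached most often in each group and table, in the uneven shares given above. No other list was reached in more than 5.26% of thinned cells of a group and table.

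The protein genes did not share that direction as a sum. Their summed level was 5483 and 5473 CPM in HI (first and second table), 5481 and 5413 CPM in LO, 5778 and 5558 CPM in MID, and 5233 and 4821 CPM in young cells. HI and LO were 0.00 and 0.02 apart on the log2 scale, and each old group was above young in each table, by 0.07 to 0.21. In each old group this difference was larger in the second table, where sex cannot be told apart from age. That limit also holds for the single genes below. From medians over cells, the difference from young was 0.01 and 0.15 for LO, 0.15 and 0.21 for MID, and 0.03 and 0.20 for HI. Single protein genes with at least 10 CPM parted within the summed level. HI was below LO in each table for mt-Nd5 (-0.26 and -0.10), mt-Co1 (-0.11 and -0.10) and mt-Nd6 (-0.13 and -0.05). HI was above LO for mt-Nd1 (0.14 and 0.20), mt-Cytb (0.10 and 0.04) and, barely, mt-Nd4 (0.02 and 0.00). The signs were opposite for mt-Nd2 (-0.27 and 0.21) and mt-Co3 (-0.06 and 0.02). In the runs, the protein sum of HI was above young in 6 of 6, by 0.02 to 0.36. The sums of LO and MID were each above young in 5 of 6. Between 150000 and 300000 nuclear reads, HI was above LO by 0.18 and 0.09 and above young by 0.03 and 0.33. In that window LO differed from young by -0.14 and 0.24 and MID by -0.03 and 0.22, so their direction differed between the tables.

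By complex, the NADH dehydrogenase subunit gene mt-Nd1 differed most from young. It had 724 and 694 CPM in HI, 660 and 604 CPM in LO, 732 and 644 CPM in MID, and 628 and 517 CPM in young cells (first and second table). The HI to young differences were 0.21 and 0.42 on the log2 scale, so young was lowest in each table. mt-Nd2 was uneven, at 171 and 187 CPM in HI and 191 and 143.8 CPM in young cells, and its HI to young differences of -0.16 and 0.38 have opposite signs. mt-Nd4 was at 256 and 278 CPM in HI, against 262 and 234 CPM in young cells, again with opposite signs. mt-Nd5 was at 474 and 484 CPM in HI, against 569 and 520 CPM in LO and 518 and 478 CPM in young cells. It was lower in HI than in LO in each table, by 0.26 and 0.10 on the log2 scale. mt-Nd6, which unlike the others is encoded on the opposite strand, was at 90.8 and 83.3 CPM in HI, against 90.5 and 79.4 CPM in young cells. No source used here says whether counting used strand, so reads of either strand in its interval cannot be told apart.

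mt-Cytb of complex III had 2523 and 2496 CPM in HI, 2354 and 2423 CPM in LO, 2541 and 2660 CPM in MID, and 2255 and 2176 CPM in young cells (first and second table). All 3 old groups were above young in each table, by 0.06 to 0.29 on the log2 scale. mt-Co1 of complex IV differed little, with 1208 and 1216 CPM in HI, against 1258 and 1161 CPM in young cells. The reads assigned to mt-Co3 came to 19.1 and 18.7 CPM in HI, against 16.7 and 17.8 CPM in young cells.

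Only 10 of the 37 genes passed the level filter (an average of 10 CPM and detection in 10% of kept cells), namely both rRNA genes and mt-Nd1, mt-Nd2, mt-Nd4, mt-Nd5, mt-Nd6, mt-Cytb, mt-Co1 and mt-Co3. None of the 10 reached 1.5-fold (0.58 on the log2 scale) in the same direction in each table in any of the 5 comparisons. Of 10734 genes above the filter, 9.35% did so in either direction between LO and young, 7.92% between MID and young and 8.54% between HI and young. The corresponding shares were 8.19% for HI against LO and 6.65% for the mean of the old groups against young. With shares of this size, 0 of 10 members is near the background and no result about them. The median difference of the 10 genes was 0.12 for LO, 0.14 for MID and 0.07 for HI against young, where the medians over all genes tested were -0.01, 0.00 and 0.02.

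**Figure D3:**
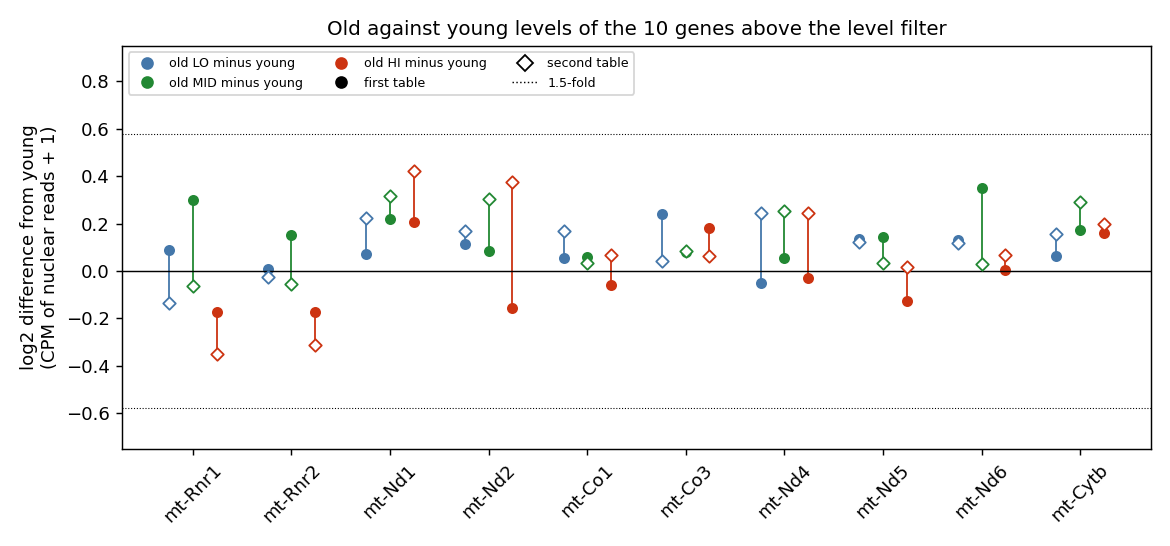
Log2 difference from young for the 10 genes above the level filter, per nuclear gene read with a pseudocount of 1 CPM, for LO, MID and HI; filled circles are the first table, open diamonds the second, and dotted lines mark 1.5-fold. mt-Rnr1 and mt-Rnr2 lie below 0 in HI in each table while mt-Nd1 and mt-Cytb lie above it, and no point passes a dotted line.

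Set against each other within a cell, the 2 classes gave a ratio with neither nuclear nor spike-in reads as a term. Across the cells of each group and table it was positively related to the number of nuclear reads, in which HI was deepest (Pearson's r from 0.261 to 0.577 in 8 sets of 61 to 71 cells). The median cell had 0.370 and 0.390 protein gene reads per rRNA gene read in HI (first and second table), against 0.332 and 0.326 in LO, 0.300 and 0.334 in MID, and 0.304 and 0.290 in young cells. HI was highest in each table, although single cells of all groups overlapped. From sums over cells, the log2 ratio of HI was above young by 0.24 and 0.50, and above LO by 0.19 and 0.30. In the 6 runs the ratio of sums was 0.369, 0.404, 0.356, 0.412, 0.369 and 0.412 in HI. LO had 0.292, 0.324, 0.326, 0.335, 0.324 and 0.322 in the same runs, MID had 0.295, 0.267, 0.326, 0.361, 0.338 and 0.318, and young had 0.324, 0.315, 0.332, 0.285, 0.296 and 0.280. HI was thus the highest group within each of the 6 runs. Its lowest run was above the highest run of LO and of young, but below the highest run of MID. LO itself was above young in 4 of 6 runs and MID in 3 of 6, largely by table. The log2 differences of MID from young were -0.14, -0.24 and -0.02 in the runs of the first table. In the runs of the second they were 0.34, 0.19 and 0.18. Those of LO were -0.15, 0.04 and -0.03, then 0.23, 0.13 and 0.20. In the second table sex cannot be told apart from age, which also holds for its runs of HI against young.

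**Figure D4:**
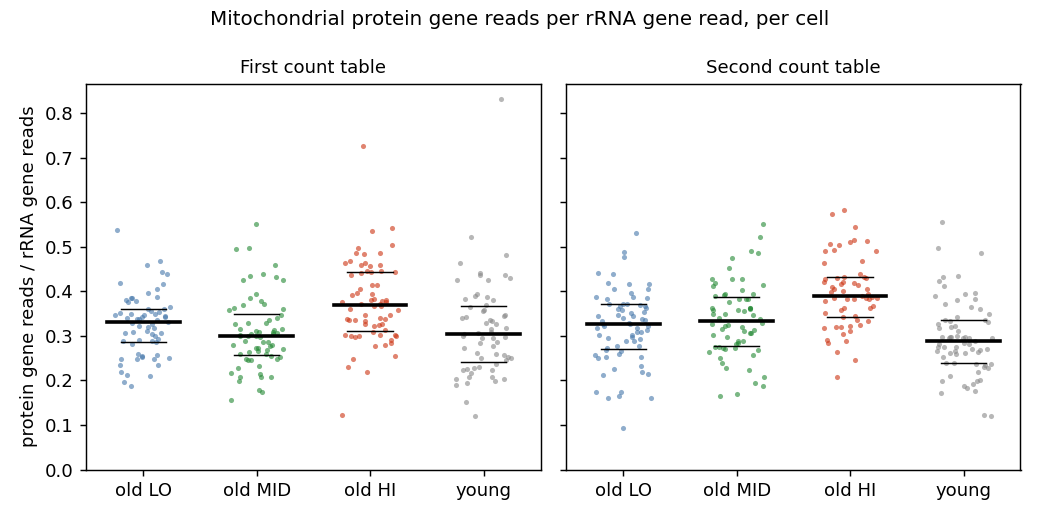
Mitochondrial protein gene reads per mitochondrial rRNA gene read in each kept cell, by group and count table; thick lines are medians and thin lines quartiles. The HI medians of 0.370 and 0.390 are the highest in their tables, and single cells of the 4 groups overlap.

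Cycling cells moved with this ratio. Cells with at least 8 of 30 G2 and M phase genes were taken as cycling, after cells above 100000 nuclear reads were thinned to that number. They made up 27.9% and 39.3% of kept HI cells (first and second table), against 3.08% and 5.63% in LO. The shares were 8.82% and 6.06% in MID, and 11.1% and 16.9% in young cells. In each of the 8 groups and tables, the cycling cells had a lower rRNA level and a higher protein to rRNA ratio than the other cells. They numbered only 2 and 4 in LO and 6 and 4 in MID, against 19 and 24 in HI and 7 and 12 in young. Their median of nuclear reads was also higher in each set, as in LO of the first table with 551438 against 287076. The part of depth in these differences was not tested. HI cells with 8 or more such genes had ratios of 0.422 and 0.445, against 0.355 and 0.375 in the other HI cells. Among cells with fewer, HI was still highest, since LO had 0.323 and 0.323, MID 0.299 and 0.337, and young 0.297 and 0.278. Without the cycling cells, the log2 ratio of HI was above young by 0.34 and above LO by 0.18 on average over the tables, against 0.37 and 0.24 with them. Between 150000 and 300000 nuclear reads the differences were 0.37 and 0.18, and without cells that hold markers of another blood cell type 0.39 and 0.31.

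The tRNA genes were at the edge of detection. The 22 genes had 3541 reads in all, from 0 in mt-Td, for aspartic acid, and mt-Th, for histidine, to 477 in mt-Tp. After thinning, mt-Tp had a read in 24.8% and mt-Tq in 21.8% of 501 cells, and no other tRNA gene reached 20%. The class summed to 22.7 and 19.5 CPM in HI (first and second table), against 23.6 and 16.9 CPM in LO, 26.6 and 18.6 CPM in MID, and 22.1 and 16.8 CPM in young cells. The second table was lower than the first in every group. mt-Tp had 84 and 72 reads in HI and 49 and 50 reads in young cells, or 3.41 and 2.84 CPM against 2.58 and 2.18 CPM. The 95% Poisson intervals were 2.72 to 4.23 and 2.22 to 3.57 CPM in HI, against 1.91 to 3.41 and 1.62 to 2.87 CPM in young cells, and overlapped in each table. mt-Tq had 54 and 46 reads in HI and 56 and 36 reads in young cells, or 2.19 and 1.81 CPM against 2.95 and 1.57 CPM. On the log2 scale HI was above young by 0.30 and 0.27 for mt-Tp, and differed by -0.31 and 0.13 for mt-Tq. At these read counts no difference between HI and young is claimed for either gene. Reads in the intervals of these 2 genes can also come from longer precursors or the other strand.

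Relative to the ERCC spike-in RNAs, which were read 342 to 22058 times per kept cell, HI had more mitochondrial and more nuclear reads. The median cell of HI had 1.22 and 1.43 mitochondrial reads per spike-in read in the first and second table, against 0.886 and 1.05 in LO, 1.04 and 1.002 in MID, and 0.918 and 1.03 in young cells. From sums, the log2 difference of HI from young averaged 0.43 over the tables for mitochondrial reads, 0.70 for the protein genes, 0.33 for the rRNA genes and 0.58 for nuclear genes. From LO, HI differed by 0.35 for mitochondrial reads, 0.53 for protein genes, 0.28 for rRNA genes and 0.52 for nuclear genes. In both comparisons the protein genes differed by at least as much as the nuclear genes and the rRNA genes by less. In the runs, mitochondrial reads per spike-in read were higher in HI than in young in 6 of 6, by 0.33 to 0.73, and higher than in LO in 6 of 6, by 0.13 to 0.76.

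Across cells, mitochondrial reads per spike-in read followed nuclear reads per spike-in read, but with a slope under 1. Because the spike-in ratio is higher in the third run of each table, the relation was taken within each run and group, in 24 sets of 14 to 19 cells. On the log2 scale, Pearson's r lay between 0.351 and 0.965 with a median of 0.824, and Spearman's rho had a median of 0.789. The slope lay between 0.331 and 0.996 with a median of 0.672. Mitochondrial reads per nuclear read were negatively related to the spike-in ratio of nuclear reads in 24 of 24 sets, with a median r of -0.57. On the log2 scale the slope of this relation is the former slope minus 1, so its sign only restates that each slope was under 1. By class, the median r was -0.59 for rRNA genes, below 0 in 24 of 24 sets, and -0.17 for protein genes, below 0 in 16 of 24. The protein to rRNA ratio was positively related to it in 24 of 24 sets by Pearson's r, with a median of 0.488. By Spearman's rho the median was 0.356, and the lowest set was at -0.028. Both axes share the spike-in or the nuclear reads in all but the last of these relations, and the cells of a set share preparation and range of depth, so they are descriptions.

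**Figure D5:**
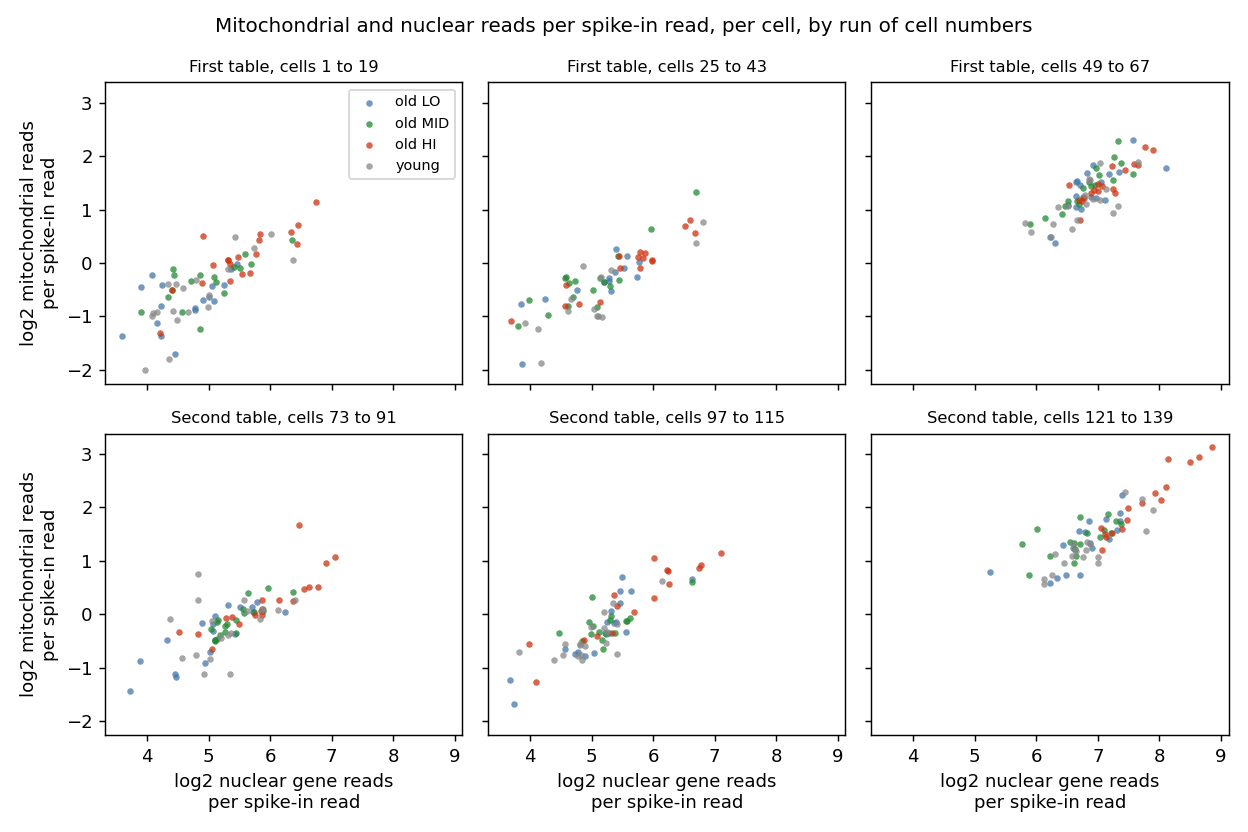
Mitochondrial reads per spike-in read against nuclear gene reads per spike-in read, both log2, for single cells in 6 runs of cell numbers. Within each run the 2 rise together, the cell furthest to the right is an HI cell in 4 of the 6, and the third run of each table lies higher on both axes (median nuclear ratio 6.89 and 6.87).

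Among the members themselves, levels across cells followed each other loosely. For the 45 pairs of the 10 genes, the median Spearman's rho over the 8 groups and tables lay between 0.0467 and 0.535. The rRNA pair mt-Rnr1 and mt-Rnr2 was highest at 0.535, followed by the neighbours mt-Nd5 and mt-Nd6 at 0.465 and by mt-Co1 and mt-Cytb at 0.455. mt-Nd2 and mt-Co3 were lowest. These values share the cells' depth and nuclear reads as a common denominator.

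The nuclear partners of these genes were taken as lists of subunits of complexes I, III, IV and V and of factors that transcribe, process or copy mitochondrial DNA and RNA. Between HI and LO, 0 of 34 complex I, 0 of 9 complex III, 0 of 11 complex IV and 0 of 13 complex V genes above the filter were past 1.5-fold in each table, beside 8.19% of all genes. Their median differences, averaged over the tables, were 0.21, 0.41, 0.33 and 0.29 on the log2 scale, against 0.00 over all genes. In the first and second table the medians were 0.21 and 0.26, 0.10 and 0.43, 0.27 and 0.44, and 0.28 and 0.26. Without the cycling cells the medians of the averaged differences were 0.14, 0.22, 0.10 and 0.08. The highest members by list were Ndufa12 and Ndufa2 (0.59 and 0.56), Uqcr11 and Uqcrq (0.61 and 0.58), Cox5a and Cox7b (0.84 and 0.47), and Atp5b and Atp5f1 (0.43 and 0.43). The lowest were Ndufa6 and Ndufa13 (-0.16 and -0.11), Uqcrh and Uqcrfs1 (-0.03 and 0.04), Cox7c and Cox4i1 (-0.02 and 0.01), and Atp5d and Atp5j2 (0.13 and 0.15). Between HI and young the medians were 0.15, 0.18, 0.24 and 0.25, and were 0.09, 0.06, 0.16 and 0.16 without the cycling cells. In these 4 lists 1 gene, Cox5a, was past 1.5-fold in each table, at 0.78 and 0.77, beside 8.54% of all genes. For the mean of the old groups against young, the medians were 0.01, -0.01, 0.05 and 0.08, with 0 genes past the fold in these 4 lists.

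Of the 40 factors above the filter, 1 was past 1.5-fold between HI and LO, beside 8.19% of all genes, so the count is no result about the list. It was Top1mt, the mitochondrial DNA topoisomerase, with 32.9 and 23.9 CPM in HI, against 16.3 and 8.73 CPM in LO and 5.11 and 9.59 CPM in young cells (first and second table). The HI to LO differences were 0.97 and 1.36 on the log2 scale, and LO and young were the 2 lowest groups in each table. Polg, the mitochondrial DNA polymerase, averaged 0.71 with opposite signs in the tables, and Elac2 and Rnaseh1, which cut RNA at tRNA ends and in hybrids with DNA, averaged -0.65 and -0.59. Between the mean of the old groups and young, Top1mt (2.20 and 0.59) and Tefm, the elongation factor of the mitochondrial RNA polymerase, were past the fold, beside 6.65% of all genes. Tefm had 23.4 and 31.5 CPM in LO, 28.2 and 38.9 CPM in MID, 33.7 and 30.1 CPM in HI, and 15.9 and 20.9 CPM in young cells. Between HI and young 2 of 40 were past the fold, beside 8.54% of all genes, namely Top1mt (2.47 and 1.23) and Mterf2, a mitochondrial DNA-binding factor. Mterf2 was lower in HI, with 11.8 and 9.77 CPM in HI and 23.1 and 19.3 CPM in young cells. The RNA polymerase gene Polrmt had opposite signs in the 2 tables, at 19.9 and 48.4 CPM in HI and 63.1 and 33.4 CPM in young cells. Between LO and young 1 of 40, Polg, was past the fold, beside 9.35% of all genes, with 30.3 and 21.5 CPM in LO and 47.4 and 40.2 CPM in young cells. Between MID and young 3 of 40 were past it, namely Tefm, Top1mt and Hsd17b10, a subunit of mitochondrial RNase P, near the 7.92% of all genes. Hsd17b10 had 249 and 252 CPM in MID, against 147 and 164 CPM in young cells. Over the 40 factors the median was 0.01 for HI against LO and -0.03 for old against young, close to the medians of all genes. In the first and second table it was 0.19 and -0.07 for HI against LO, and -0.14 and 0.14 for old against young.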

How the data were processed

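Each sample is 1 sorted bone marrow cell prepared with modified Smart-seq2, per the labels' protocols. The 2 deposited tables hold whole-number counts, with no scaling by the authors found in them. Tools named in the submitters' processing notes are featureCounts 2.0.0, Subread, STAR 2.7.3a and DESeq2, with the build mm10. How reads with several alignments were treated is not given in the sources used here. Gene entries were matched to GENCODE M21 (935 without a match), and mitochondrial transcripts were aligned to nuclear transcripts with BLAST 2.17.0. Counts were summed over kept cells by group and table, divided by nuclear gene reads and compared as log2(CPM + 1) for single genes, within each table and then averaged. Shares of cells with a read or with markers were taken after thinning each cell to 100000 nuclear reads, which left 501 cells. Cycling cells, and cells left out for markers of another type, were flagged among all 533 kept cells. There, cells below 100000 nuclear reads entered unthinned. No doublet caller was run on these singly sorted cells, and no limit on the mitochondrial share was set. Each group is 1 sample, so no test was run. The difference calculation was checked on simulated data. Values are given for the protein and rRNA genes, for tRNA genes with a read in 20% of thinned cells, and for the nuclear copies named above. They are also given for the highest and lowest members of the nuclear lists. Genes named for passing 1.5-fold in those lists, and Polrmt, which is also the second lowest factor in HI against young, follow from their values. A further gene of the HSC marker list is not reported here. The members and lists were chosen with earlier results of these data known. Alternatives were TMM factors (edgeR 4.0.16), median-ratio size factors (DESeq2 1.42.0), spike-in scaling, other filters and pseudocounts, medians over cells, leaving out cells, and the runs. Calculations used Python 3.11.15, NumPy 2.4.6, pandas 2.3.3, SciPy 1.17.1, matplotlib 3.10.9 and R 4.3.3.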

Additional observations from a re-analysis of the deposited data

How the results depend on the processing

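Values below are mean log2 differences over the tables, for LO, MID and HI against young and HI against LO in that order. The mitochondrial level per nuclear read was 0.022, 0.082, -0.15 and -0.17 as reported. It was -0.015, 0.082, -0.14 and -0.13 from medians over cells, 0.013, 0.076, -0.14 and -0.15 with TMM factors, and 0.010, 0.067, -0.14 and -0.15 with median-ratio factors. Per spike-in read it was 0.082, 0.17, 0.43 and 0.35, so both HI comparisons turned round, since nuclear reads per spike-in read were themselves higher in HI. With no filter on cells it was 0.023, 0.10, -0.15 and -0.17, and with at least 100000 nuclear reads and 2000 genes 0.0083, 0.082, -0.15 and -0.16. Without cycling cells it was 0.0057, 0.057, -0.12 and -0.12, and without cells with markers of another type 0.039, 0.11, -0.14 and -0.18. Chosen after seeing the data, the window of 150000 to 300000 nuclear reads gave -0.098, -0.014, -0.099 and -0.0015, and the mean over the 6 runs gave 0.094, 0.15, -0.072 and -0.17. The causes of these shifts were not tested. Leaving out each cell in turn gave 0.011 to 0.047, 0.071 to 0.11, -0.16 to -0.12 and -0.19 to -0.16.

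The protein to rRNA ratio and the alternatives for the 2 classes were also added after seeing the data. The rRNA difference of LO from young (-0.0081) changed sign per spike-in read (0.053), without cells with other markers (0.020), over the runs (0.076) and with 1 cell left out (-0.020 to 0.023). The rRNA difference of MID from young (0.053) was -0.046 in the depth window. Per spike-in read, the rRNA difference of HI was 0.33 from young and 0.28 from LO. The protein gene difference of HI from LO lay between -0.0052 and 0.021 with 1 cell left out. The protein to rRNA ratio of HI stayed above that of young and LO in each alternative run for it. The number of members past 1.5-fold was 0 in each setting. No paired analysis was possible because no test was run and a number does not pair single cells of different groups; the groups were set side by side by run instead. Low read counts limit what can be said of the tRNA genes, and the reason for these counts was not tested.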
